A study of Mus musculus with 18 samples.

Results

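Peripheral axotomy was set directly against central axotomy in the dorsal root ganglia of the mouse. The comparison used 6 of the 18 samples of the series: 3 of the group SNA_Saline (sciatic nerve injury with saline) and 3 of the group DCA (injury of the dorsal columns of the spinal cord). All 15730 genes in the count table were compared as they were measured in these groups, without first subtracting the surgical controls. The controls were Sham_Saline (a sham procedure with saline) and LAM (laminectomy, the opening of the vertebral bone over the cord). They form a comparison of their own with 3 samples a group, and their values stand beside part of the results. SNA_NAC, sciatic nerve injury with 30 mM N-acetyl-cysteine, is mentioned for its levels, and the remaining group, the sham procedure with hydrogen peroxide, only for 1 gene. All mice were C57BL/6, aged 6 to 8 weeks, and each sample pooled the sciatic ganglia of 2 mice taken 24 hours after surgery. SNA_Saline and DCA differ in the site of surgery and in the saline as well as in the branch that was cut. Effects of the branch, the share of neurons cut, the wound and the saline cannot be told apart from these 2 groups.

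A dorsal root ganglion neuron has a single axon that splits. The peripheral branch runs in a nerve to skin, muscle or viscera, and the central branch enters the spinal cord, where part of the neurons send it up the dorsal columns. The peripheral branch regrows after injury and the central branch largely fails to. Cutting the peripheral branch sets off a transcriptional injury programme in the cell body, led by factors of the AP-1 and CREB families such as ATF3 and JUN, with induction of neuropeptides, growth factors and cytoskeletal proteins. A dorsal column injury spares the neurons whose central branch ends near its entry level. The share of cell bodies axotomised was not measured in either group.

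Markers of sensory neurons were present in all 6 samples. Prph, the intermediate filament of peripheral neurons, lay between 362 and 670 FPKM (reads scaled to gene length and depth) over the 6 samples, and Avil, an actin-binding protein of sensory neurons, between 125 and 215 FPKM. The oligodendrocyte factor Olig2 was listed at 0 in all 6, and Chat, the enzyme of acetylcholine synthesis in motor neurons, reached at most 0.0580 FPKM. Muscle and blood transcripts were present. Acta1, from the skeletal muscle list, lay at 1.75 to 30.0 FPKM in SNA_Saline and 13.4 to 20.7 FPKM in DCA. Hba-a1, a red cell gene, lay at 27.2 to 75.9 FPKM in SNA_Saline and 29.6 to 114 FPKM in DCA. Total counts were 9467654 to 15390014 in SNA_Saline and 11827642 to 26400241 in DCA. Replicates of SNA_Saline varied with a median SD per gene of 0.183, and those of DCA with 0.204, on the scale of log2 CPM (counts scaled to library size after TMM normalization). Every pair of replicates differed beyond counting noise (reduced chi-square 4.11 or more). Replicate 1, 2 and 3 of every group were sequenced on lane 1, 2 and 3. Along the first principal component of the 6 samples (49.7% of the variance) lanes and groups were both spread: SNA_Saline lay below DCA by a similar distance on every lane, at -22.6 against 14, -40.6 against -1.43 and 6.84 against 43.8. The slope of a sample's centred log2 CPM on the GC share of transcripts (per SD) was ordered alike. It was -0.0716 against 0.0390, -0.167 against -0.0792 and 0.120 against 0.249 on lanes 1 to 3. The part of GC share in this component was not tested.

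Among the genes higher after the peripheral cut were some whose start sites carry sequences that injury-induced factors are known to read. The 5 shown are examples that hold a match, chosen after the values were seen: Sprr1a, Procr and Areg, Srxn1 from the oxidant response list, and Ifit1, which had the largest difference among the interferon-stimulated genes that passed. AP-1, the dimer of JUN and FOS family proteins that ATF3 can also join, reads TGANTCA; CREB and ATF dimers read TGACGTCA; and the interferon response element, read by STAT and IRF factors, was searched as 2 copies of GAAA with any 2 bases between them. Both strands of 250 bases before to 50 after each RefSeq gene start (GRCm38.p6) were searched. The stretches below end before the start site, are written 5′ to 3′ on the gene's strand, and have the matches in capitals.

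Sprr1a, chr3:92485931-92486087, minus strand: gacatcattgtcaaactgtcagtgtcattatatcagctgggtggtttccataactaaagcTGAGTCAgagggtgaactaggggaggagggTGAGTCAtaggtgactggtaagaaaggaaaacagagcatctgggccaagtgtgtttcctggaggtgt
Procr, chr2:155751003-155751129, plus strand: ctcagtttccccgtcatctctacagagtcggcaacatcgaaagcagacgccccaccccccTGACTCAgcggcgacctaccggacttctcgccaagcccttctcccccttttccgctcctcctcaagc
Srxn1, chr2:152105362-152105523, plus strand: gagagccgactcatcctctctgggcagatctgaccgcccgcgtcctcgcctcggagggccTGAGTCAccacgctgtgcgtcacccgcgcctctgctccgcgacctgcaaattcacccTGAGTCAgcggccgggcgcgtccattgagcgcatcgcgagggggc
Areg, chr5:91139478-91139598, plus strand: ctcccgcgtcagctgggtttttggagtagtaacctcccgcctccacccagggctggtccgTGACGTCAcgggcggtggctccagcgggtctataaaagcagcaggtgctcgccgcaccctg
Ifit1, chr19:34640725-34640873, plus strand: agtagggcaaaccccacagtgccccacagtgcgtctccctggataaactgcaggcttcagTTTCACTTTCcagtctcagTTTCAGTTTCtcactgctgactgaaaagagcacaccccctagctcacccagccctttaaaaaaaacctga

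Sprr1a and Srxn1 each held 2 AP-1 matches, Procr 1, and Ifit1 2 matches of the interferon response element on the opposite strand. Across the genes as a whole the matches were not frequent. Of the promoter windows of the genes called higher (357 windows of 283 genes that the table held), 6.72% had an AP-1 match, against 7.81% of all 32851 windows of the table and 5.31% of the windows of genes tested. For the CREB site the shares were 3.36%, 1.79% and 2.86%, and for the interferon element 5.04%, 3.44% and 2.99%. A match describes letters and not binding.

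After peripheral axotomy, compared directly with central axotomy, 381 of 15730 genes were higher (2.42%) and 84 were lower (0.534%) at an adjusted p under 0.05 in edgeR's quasi-likelihood test, 465 in all (2.96%). The genes that were higher had a median log2 fold change of 0.877, and 151 of them differed at least 2-fold. The lower genes differed less, with a median of -0.677 and 14 at least 2-fold. The SNA_Saline and DCA samples did not overlap for any of the 465. There was no overlap in 20.0% of all genes (11.3% with SNA_Saline above and 8.73% with it below). The 465 were called on these same samples, so their lack of overlap is no separate support. Without overlap the sign is necessarily the same on each of the 3 lanes. Among the higher genes were transcription factors and effectors of the injury programme, secreted factors, 4 neuropeptides and 4 interferon-stimulated genes. Among the lower genes that averaged 50 counts or more, an enzyme from the list of satellite glia and a lipid-droplet protein had the largest differences.

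**Figure D1:**
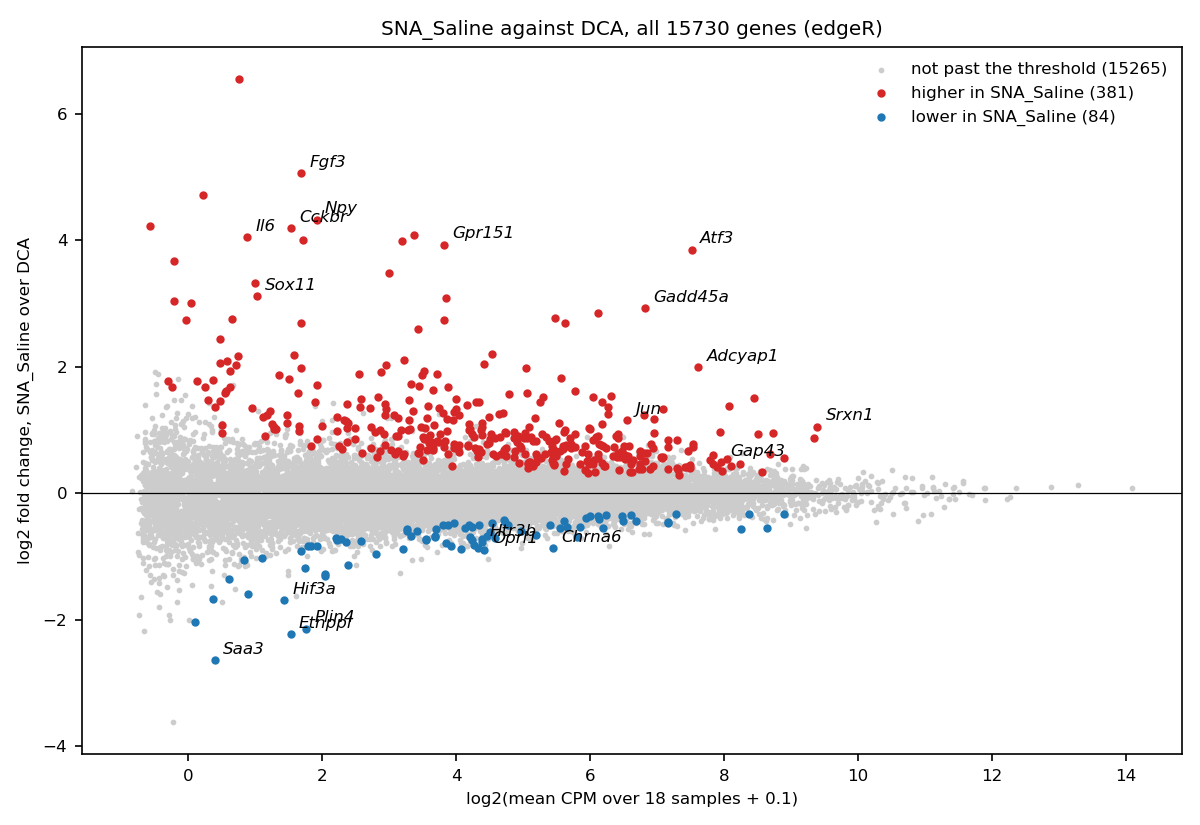
Each point is a gene, placed by its mean level over the 18 samples (log2 of CPM + 0.1) and its log2 fold change of SNA_Saline over DCA; coloured points have an edgeR adjusted p under 0.05. The 381 higher genes reach larger differences than the 84 lower genes.

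Adding the lane as a block gave 415 genes (352 higher and 63 lower), 402 of them among the 465. With offsets for the GC share and length of transcripts 1432 genes passed, 868 higher and 564 lower, so that the higher share was 60.6% in place of 81.9%. 451 of the 465 were among them.

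Atf3, the stress-induced factor that marks axotomised sensory neurons, was among the clearest differences. Its level was 449.8, 420.0 and 461.8 CPM after sciatic nerve injury and 25, 39.6 and 28.2 CPM after dorsal column injury. The groups were far apart, and the difference was 14.4-fold (log2 fold change 3.85, SE 0.19, adjusted p = 2.16e-09). The gene lies at chr1:191170296-191218039 on the minus strand (mm10, GENCODE M21). Both controls had moderate and unequal levels, 55.9, 72.6 and 59.4 CPM in Sham_Saline and 12.2, 12.4 and 16.9 CPM in LAM. The controls thus differed in the same direction, by a log2 fold change of 2.17 (adjusted p = 4.09e-05), and the injury difference exceeded theirs by 1.68 (adjusted p = 0.00229). Ordered by mean, Atf3 stood at 13.8 ± 2.64 CPM in LAM, 30.9 ± 7.69 in DCA, 62.6 ± 8.81 in Sham_Saline, 98.8 ± 20.7 in the sham procedure with peroxide, 444 ± 21.5 in SNA_Saline and 447 ± 33.0 in SNA_NAC (SD, n = 3 each). The last 2 means lie closer together than their spread. All 3 DCA samples lay below all 3 Sham_Saline samples.

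Of the 24 measured transcription factors of axon injury and regeneration, 11 were higher after the peripheral cut and 0 lower. All 24 had a positive log2 fold change, against 48.0% of all genes. Their median was 0.683, against -0.013 over all genes, and their median difference between the controls was 0.014. The smallest of the 24 values was 0.049. Without SNA_Saline replicate 3, and likewise without DCA replicate 1, 21 were positive and 3 negative. Sox11, a transcription factor of the SRY-box family that promotes axon growth, had 4.29, 5.19 and 3.49 CPM after the peripheral cut and 0.490, 0.427 and 0.524 CPM after the central one. That is 8.68-fold (log2 fold change 3.12, SE 0.33, adjusted p = 1.82e-05), at a level that stayed low in both groups: 2.10 FPKM after the peripheral cut, where Atf3 was at 219 FPKM. Jun, the partner of ATF3 in AP-1, was at 152, 151 and 143 CPM against 70.1, 71.4 and 58.8 CPM. It was higher by 1.16 (SE 0.12, adjusted p = 1.61e-05), and the DCA samples lay within the range of the control samples, 57.9 to 78.5 CPM. Klf6, a zinc-finger factor that promotes axon growth, and Nfil3, a repressor that binds CREB sites, were higher by 1.18 and 1.69 (adjusted p = 1.76e-05 and 9.45e-06). Fosl1, a further AP-1 subunit, was near the threshold: 1.52, 1.62 and 2.35 CPM against 0.565, 0.427 and 1.05 CPM, adjusted p = 0.0462. It did not pass with the lane as a block.

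**Figure D2:**
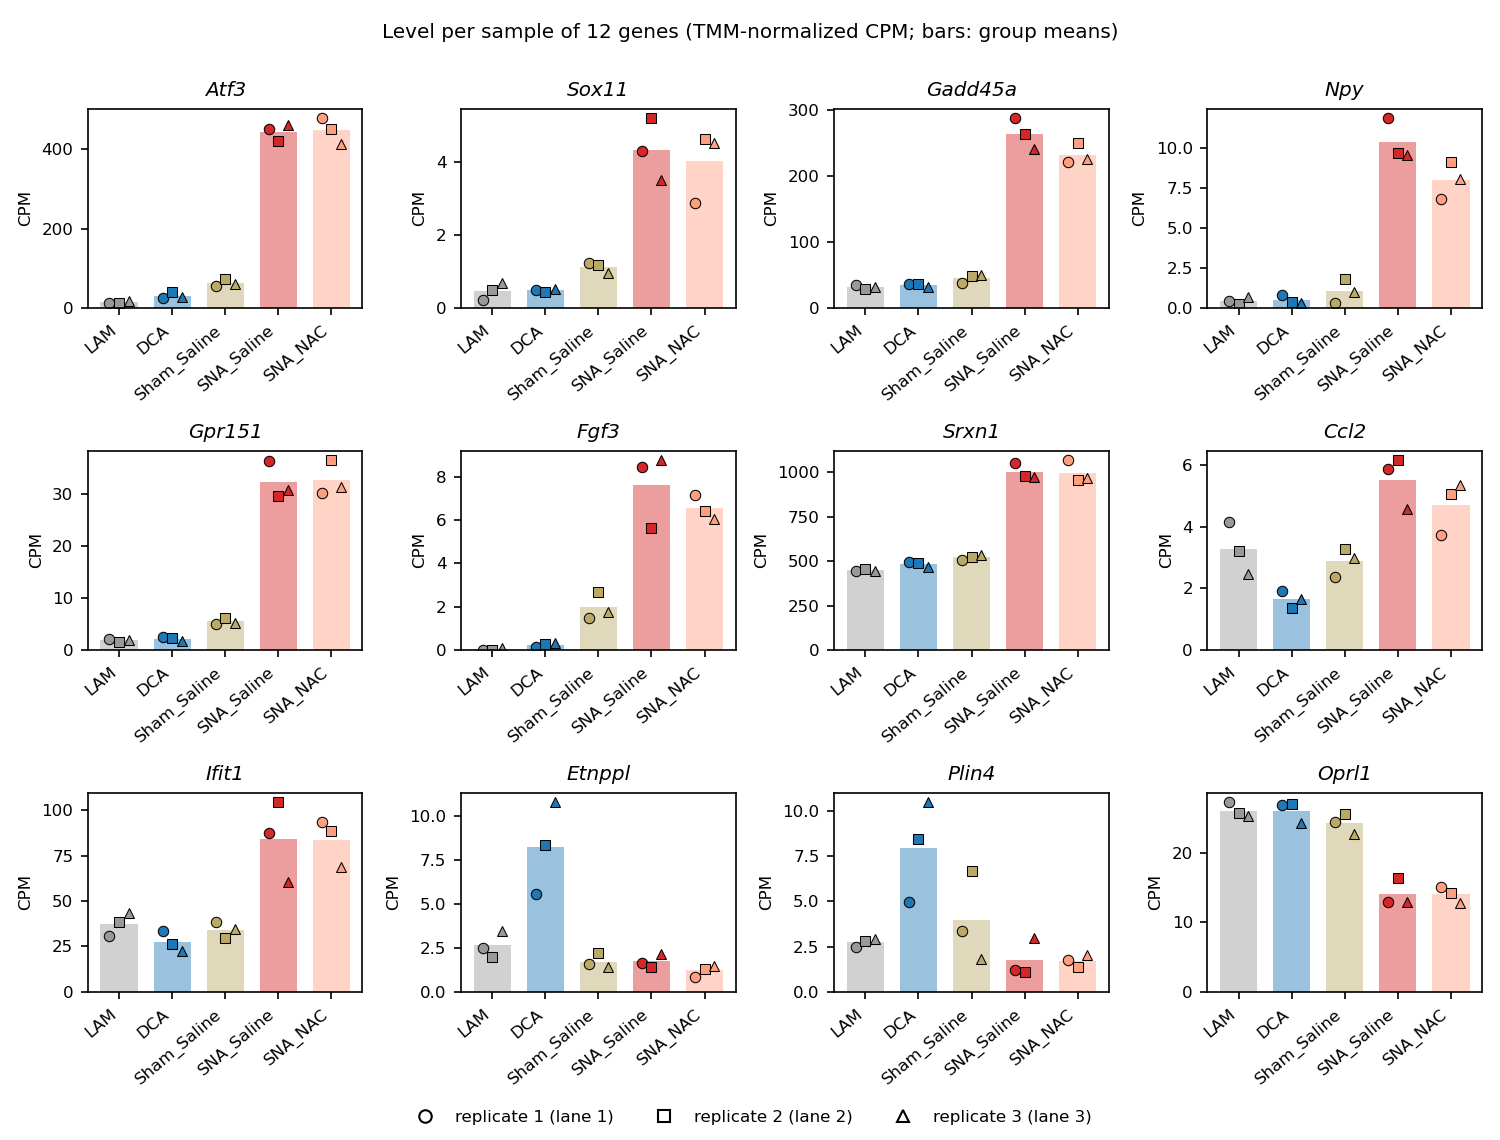
Levels in each of the 3 samples (CPM after TMM normalization, linear axis from 0) of 12 genes discussed in the text, in LAM, DCA, Sham_Saline, SNA_Saline and SNA_NAC; symbols are samples by lane and bars are group means. Atf3 lies at 420.0 to 461.8 CPM in SNA_Saline and at 25 to 39.6 CPM in DCA.

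The list of growth-associated effector genes had 16 of 33 measured members higher and 0 lower, with a median log2 fold change of 0.682 (0.512 between the controls). Sprr1a, a small proline-rich protein that promotes neurite growth, was at 20.5, 21 and 15.3 CPM after the peripheral cut and 3.39, 0.683 and 0.645 CPM after the central one, 11.2-fold higher (log2 fold change 3.48, SE 0.52, adjusted p = 0.000531). DCA replicate 1 stood above the other 2. Gadd45a, a growth-arrest and DNA-damage protein, was at 288, 264 and 241 CPM against 35.5, 36.5 and 32.3 CPM. This was a 7.6-fold difference (log2 fold change 2.93, SE 0.14, adjusted p = 1.43e-09). The controls differed in the same direction by 0.53 (adjusted p = 0.104), and the injury difference exceeded theirs by 2.39. Areg, the EGF receptor ligand amphiregulin whose CREB site is printed above, was 16.1-fold higher, at 9.50, 7.89 and 6.27 CPM against 0.415, 0.683 and 0.443 CPM. Il6, a cytokine that neurons make after axotomy, was 16.6-fold higher, at 4.02, 4.54 and 3.28 CPM against 0.0754, 0.512 and 0.242 CPM. Ankrd1, an ankyrin-repeat cofactor, had 3, 1 and 0 counts in DCA, so only its level after the peripheral cut, 0.973 to 1.78 CPM, is given. Gap43, the growth-cone protein most often used as a marker of regeneration, differed little: 309, 300.5 and 304 CPM against 220.1, 201.0 and 231 CPM, 1.40-fold, adjusted p = 0.0340. It did not pass when any 1 of the 6 samples was left out.

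The gene with the largest fold change under the naming rule was Fgf3, a secreted fibroblast growth factor. Its counts were 128, 52 and 123 after the peripheral cut and 3, 3 and 8 after the central one (8.45, 5.62 and 8.77 CPM against 0.113, 0.256 and 0.322 CPM; log2 fold change 5.06, SE 0.46, adjusted p = 3.24e-06). The controls were also far apart, with 31, 64 and 26 counts in Sham_Saline and 0, 0 and 3 in LAM. Fgf3 thus differed without axotomy too, between Sham_Saline and LAM (adjusted p = 0.00175). The predicted gene Gm5152 was detected on the nerve side in the same way, at 3.35 to 3.83 CPM in SNA_Saline, with 2, 0 and 0 counts in DCA. Procr, the endothelial receptor of protein C, was 8.46-fold higher, at 34.9, 31.2 and 36.0 CPM against 4.60, 4.44 and 3.1 CPM. Tmem88b, a membrane protein, reached 17.0-fold, at 26.2, 24.0 and 21.4 CPM against 1.55, 1.28 and 1.33 CPM (adjusted p = 1.82e-09). For Procr and Tmem88b the injury difference exceeded the control difference, by 2.38 and 2.77 on the log2 scale (adjusted p = 0.00101 and 9.81e-05).

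Neuropeptides were split. Of 15 measured, 4 were higher after the peripheral cut and 0 lower, and the median was 0.092. Npy, neuropeptide Y, had 11.9, 9.73 and 9.55 CPM against 0.792, 0.342 and 0.322 CPM, 20.1-fold higher (log2 fold change 4.33, SE 0.49, adjusted p = 3.18e-05), with controls between 0.217 and 1.81 CPM. Gal, galanin, an inhibitory peptide, was 4.14-fold higher at 44.6, 34.6 and 40.8 CPM against 10.3, 6.57 and 11.8 CPM. Adcyap1, which encodes the trophic peptide PACAP, was at 398, 386 and 293 CPM against 94.6, 104 and 71.4 CPM. Its controls lay close together, from 95.4 to 130.1 CPM, and overlapped the DCA range. Vgf, a neurotrophin-induced secretory protein, was 3.54-fold higher, but Sham_Saline replicate 2 (77.9 CPM) lay inside the SNA_Saline range of 68.6 to 93.4 CPM.

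Their receptors did not move one way. Of 17 receptors for peptides and inhibitory transmitters, 3 were higher and 1 was lower. Cckbr, a cholecystokinin receptor, was 18.3-fold higher at 8.25, 7.67 and 6.13 CPM against 0.867, 0.0854 and 0.0806 CPM. DCA replicate 1 stood above the other DCA samples, which were near 0, so the size of this fold is uncertain. Cckbr passed in all 15 alternatives run for it, with log2 fold changes from 1.68 to 6.36. Gpr151, an orphan receptor known from injured sensory neurons, was 15.3-fold higher at 36.4, 29.6 and 30.7 CPM against 2.45, 2.31 and 1.61 CPM (adjusted p = 1.43e-09). Npy1r, a receptor of neuropeptide Y, was 2.01-fold higher at 67.2, 70.9 and 63.9 CPM against 36.1, 37.4 and 27.2 CPM. Oprl1, the inhibitory nociceptin receptor, was lower at 12.9, 16.3 and 13.0 CPM against 26.9, 27.0 and 24.3 CPM (log2 fold change -0.89, SE 0.12, adjusted p = 0.000256). Its DCA samples lay among the controls, 22.7 to 27.2 CPM, so that the SNA_Saline samples were the ones apart.

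None of 40 measured voltage-gated channel genes passed (0 of 40 in edgeR). Of these, 8 were at an unadjusted p under 0.05, against 13.0% of all genes. A negative log2 fold change was found in 32 of the 40, while 48.0% of all genes were positive. The median of the 40 was -0.228 between the injuries and 0.265 between the controls. With the GC and length offsets 1 was higher and 5 were lower after the peripheral cut. Among 29 genes of sensory transduction and ligand-gated channels, 1 was higher and 3 were lower, and with the offsets 3 were higher and 7 lower. Both subunits of the serotonin 5-HT3 receptor were lower: Htr3b at 14.8, 15.1 and 13.7 CPM against 22.7, 27.6 and 24.3 CPM (log2 fold change -0.77, adjusted p = 0.000333), and Htr3a by -0.46 (adjusted p = 0.0292). Chrna6, a nicotinic receptor subunit, was at 33.7, 30.3 and 27.6 CPM against 52.5, 56.4 and 58.9 CPM (-0.87, adjusted p = 0.000146). Gabra5, a GABA-A receptor subunit, was higher by 0.73 (adjusted p = 0.0107). Of the 29 genes that mark sensory neurons and their subtypes, only Gfra1, the GDNF co-receptor, passed, at 367, 372 and 335 CPM against 172, 216 and 160 CPM, a 1.97-fold difference. With the offsets 3 of these 29 were higher and 5 lower, and with offsets and block 3 and 4. The median of these identity genes was -0.176, and their summed level was 15830 to 16350 CPM in SNA_Saline and 16060 to 17730 CPM in DCA.

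**Figure D3:**
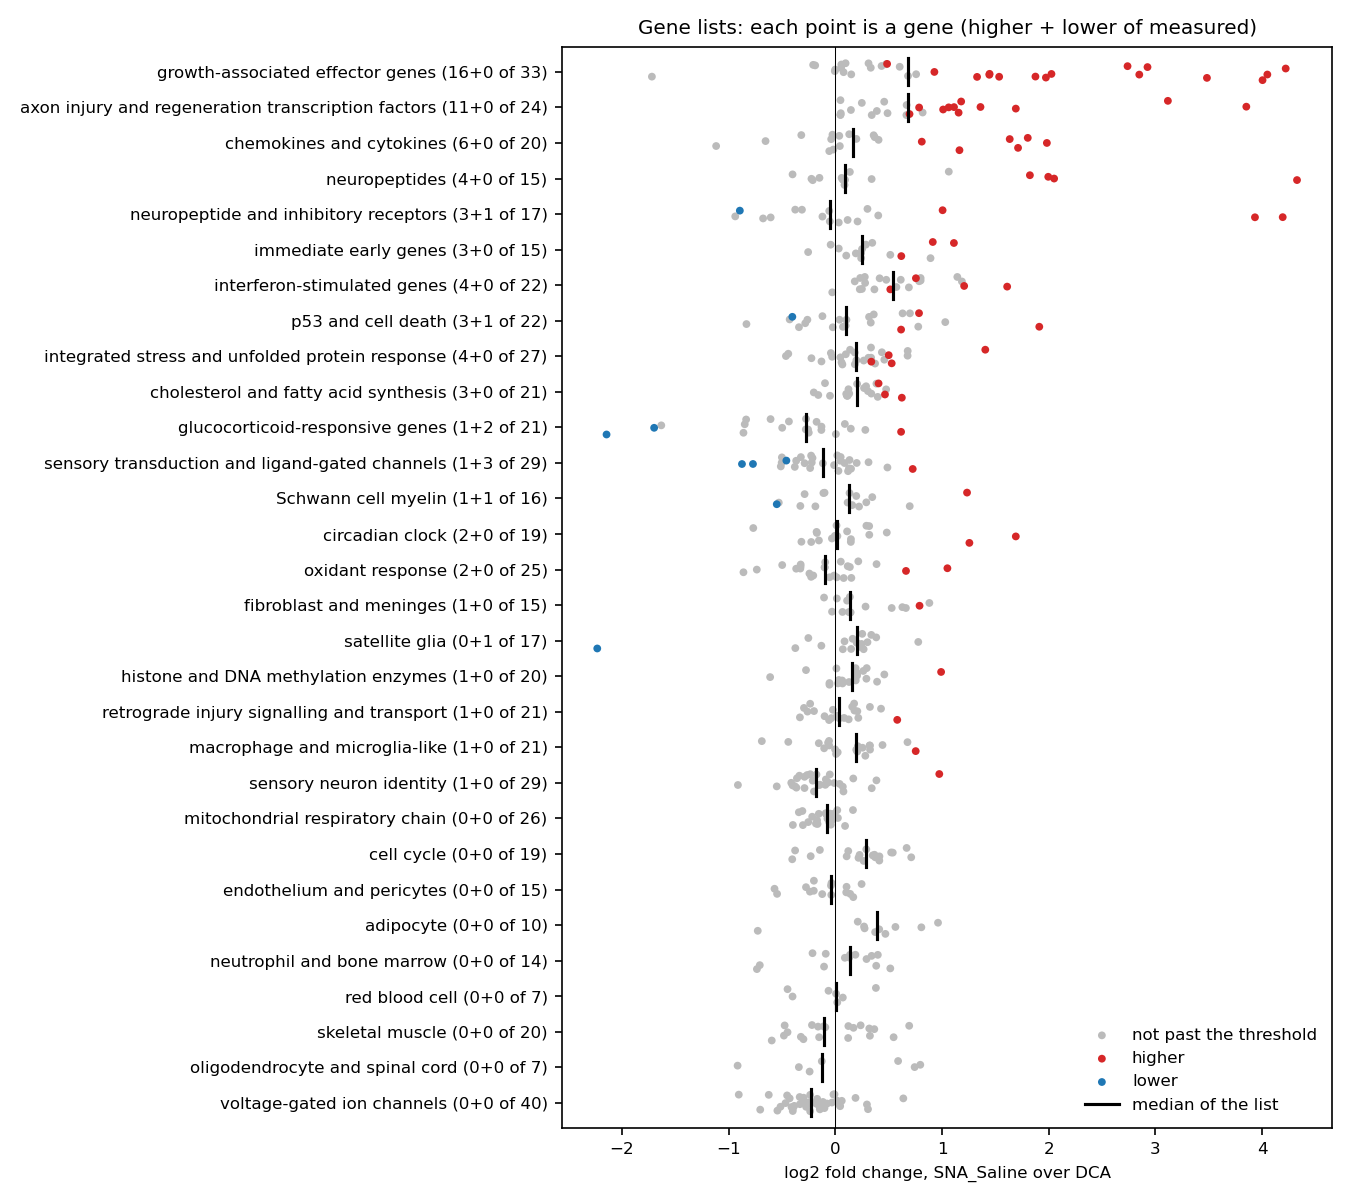
Each point is a measured member of a gene list, placed by its log2 fold change of SNA_Saline over DCA; coloured points pass an edgeR adjusted p of 0.05, and the counts beside each list give members higher plus lower of those measured; a black bar marks the median. Injury transcription factors (11 of 24) and growth-associated effectors (16 of 33) have the most passing members.

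The stress pathways were called in part. In the integrated stress response, in which ATF4 raises genes of amino acid metabolism, 4 of 27 were higher and 0 lower (median 0.198). Atf4 itself was 1.44-fold higher (adjusted p = 0.0101), Chac1, a glutathione-degrading enzyme among its targets, 2.65-fold (adjusted p = 0.00722) and Mthfd2, a mitochondrial folate enzyme, 1.42-fold (adjusted p = 0.00670). With the GC and length offsets 11 of the 27 were higher. Of 25 oxidant response genes 2 were higher and 0 lower, with a median of -0.094. Srxn1, sulfiredoxin, which restores peroxiredoxins, was at 1055, 980.0 and 972 CPM against 493, 491 and 468 CPM, 2.07-fold, adjusted p = 1.52e-06. Txnrd1, thioredoxin reductase, was 1.58-fold higher (adjusted p = 0.000535). Of 22 genes of the p53 pathway and cell death 3 were higher and 1 lower, and with the offsets 7 were higher and 4 lower. Pmaip1, the pro-apoptotic protein NOXA, was 3.76-fold higher at 13.7, 14.6 and 11.8 CPM against 3.73, 4.18 and 2.82 CPM, and Cdkn1a, the cell cycle inhibitor p21, was 1.72-fold higher. Sesn1, a sestrin, was lower by -0.40 (adjusted p = 0.0302), and the controls differed almost as much, by -0.35 (adjusted p = 0.104).

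Among 15 immediate early genes 3 were higher and 0 lower: Fosl2, an AP-1 subunit, at 2.16-fold, Btg2, an antiproliferative protein, at 1.88-fold, and Klf10 at 1.54-fold. With the offsets 5 of the 15 were higher. In the list of the circadian clock 2 of 19 were higher and 0 lower, Nfil3 and Bhlhe41, the repressor DEC2, with 118, 119.5 and 112 CPM against 53, 55.9 and 37.8 CPM. The core genes of the clock did not pass. In the list of histone and DNA methylation enzymes 1 of 20 was higher and 0 lower: Tet3, which oxidises methylcytosine, at 28.7, 33.6 and 23.5 CPM against 12.7, 17.1 and 13.5 CPM (1.99-fold, adjusted p = 0.00118). With the offsets 3 of the 20 were higher. In the list of retrograde injury signalling 1 of 21 was higher, Kpna2, an importin alpha subunit (1.5-fold, adjusted p = 0.0104).

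Interferon-stimulated genes, which cells switch on through STAT and IRF factors, were higher after the peripheral cut in 4 of 22 and lower in 0. All but 1 of the rest had positive values (21 of 22 positive in all, against 48.0% of all genes). The median of the 22 was 0.544, while the controls had a median of -0.068. Ifit1, which blocks translation of viral RNA and whose start site is printed above, was at 87.5, 104 and 60.4 CPM against 33.4, 26.3 and 22.6 CPM. This was 3.06-fold (log2 fold change 1.61, SE 0.29, adjusted p = 0.00400), and DCA lay near or below the controls, 29.4 to 43.4 CPM. Rsad2, viperin, was 2.31-fold higher (adjusted p = 0.0391) and did not pass with the lane as a block. Oasl2 and Stat2 were 1.69-fold and 1.43-fold higher (adjusted p = 0.00704 and 0.00218). With the GC and length offsets 7 of the 22 were higher.

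Of 20 chemokines, cytokines and their receptors 6 were higher and 0 lower. The monocyte chemoattractants moved together: Ccl2 was at 5.87, 6.16 and 4.56 CPM against 1.92, 1.37 and 1.65 CPM, Ccl7 3.95-fold higher and Ccl12 3.49-fold higher (adjusted p = 0.000624, 0.00356 and 0.0110). Ccl7 was at 0.953 to 1.97 CPM in Sham_Saline and at 1.95 to 2.90 CPM in LAM, an order opposite to that of the injuries that did not itself pass (adjusted p = 0.208). Tnfrsf12a, the TWEAK receptor, was 3.11-fold higher, and Socs3, an inhibitor of STAT3 signalling, 2.24-fold (adjusted p = 0.0125). In whole ganglia, more cells of a type and more RNA per cell cannot be told apart. Of 21 macrophage and microglia markers 1 passed, Mrc1, a mannose receptor, by 0.75 (adjusted p = 0.0452, not passing with the lane as a block; 3 passed with the offsets), and their summed level was 354 to 425 CPM in SNA_Saline and 306 to 406 CPM in DCA. None of 14 neutrophil and bone marrow markers passed, with summed levels of 367 to 598 CPM and 304 to 429 CPM. The part of cell numbers in the chemokine and interferon values was not tested.

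In the other direction Etnppl had the largest decrease among the genes that averaged 50 counts or more. Saa3, described with the controls, passed at a lower count with a log2 fold change of -2.65. Etnppl, an enzyme of phosphoethanolamine breakdown in the satellite glia list, was at 1.65, 1.41 and 2.14 CPM after the peripheral cut. After the central cut Etnppl was at 5.58, 8.37 and 10.8 CPM. The difference was 4.70-fold (log2 fold change -2.23, SE 0.30, adjusted p = 0.000174). Controls lay between 1.43 and 3.46 CPM, with SNA_Saline, so that here the DCA samples stood apart. None of the other 16 satellite glia markers passed, and the summed levels overlapped at 5264 to 5376 CPM and 4828 to 5518 CPM. Plin4, a perilipin that coats lipid droplets, was also lower, at 1.19, 1.08 and 2.99 CPM against 4.94, 8.45 and 10.5 CPM (-2.14, SE 0.45, adjusted p = 0.0107). Its LAM samples were at 2.48 to 2.92 CPM, and Sham_Saline was spread from 1.83 to 6.65 CPM, into the DCA range, so that its DCA samples did not stand apart from the controls. Dpep1, a dipeptidase, and Hif3a, an inhibitory hypoxia factor, were lower by -1.31 and -1.70 (adjusted p = 0.0159 and 0.0467), and Hif3a did not pass with the lane as a block. Plin4 and Hif3a are known glucocorticoid targets. Of 21 glucocorticoid-responsive genes these 2 were lower and 1, Dusp1, was higher, and the median was -0.274. With the offsets 5 of the 21 were lower and 1 higher.

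In several other genes of this direction all SNA_Saline samples lay below all control samples. Rassf6, a Ras-association protein, was at 2.71, 2.38 and 1.85 CPM against 6.22, 5.55 and 5.0 CPM (-1.27, adjusted p = 0.000647), with controls at 3.91 to 4.72 CPM. Cdkl4, a kinase of the CDK-like family, was at 1.98, 1.51 and 2.28 CPM against 4.18, 4.35 and 4.84 CPM (-1.19, adjusted p = 0.00170). Nog, the BMP antagonist noggin, was at 3.1, 3.35 and 2.35 CPM against 7.28, 7.0 and 4.96 CPM (-1.13, adjusted p = 0.0168). It did not pass with the GC and length offsets. Tmem108, a membrane protein, and Cdc45, a factor of DNA replication, were lower by -0.96 and -0.91 (adjusted p = 0.00847 and 0.0484), and Cdc45 did not pass with the lane as a block.

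Most Schwann cell myelin genes did not pass, with 1 of 16 higher and 1 lower (median 0.125). Pmp2, a fatty-acid binding protein of myelin, was at 162, 164 and 88.2 CPM against 74.4, 52.0 and 49.2 CPM (1.24, adjusted p = 0.0177). Drp2, a dystroglycan-associated protein, was lower by -0.55 (adjusted p = 0.0412), and not with the lane as a block. The summed level of the list ran from 9330 to 10310 CPM and from 8223 to 11480 CPM. Of 21 genes of cholesterol and fatty acid synthesis 3 were higher and 0 lower, among them the pathway's enzymes Idi1 (1.54-fold) and Sqle (1.38-fold). Idi1 did not pass with the lane as a block. With the offsets 8 of the 21 were higher. Col6a3, a collagen chain, was the 1 of 15 fibroblast and meningeal markers that was higher, by 0.79 (adjusted p = 0.0102), and 4 of the 15 were higher with the offsets. None passed among 20 skeletal muscle, 7 red cell, 10 adipocyte, 15 endothelial and pericyte, 19 cell cycle and 26 respiratory chain genes, or among 7 oligodendrocyte and spinal cord genes, whose summed level was 20.4 to 27.9 CPM and 21.7 to 27.2 CPM.

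The surgical controls share no sample with the injuries and had no axotomy. They differ in the site of surgery and in the saline, whose effects cannot be told apart. Between Sham_Saline and LAM 11 genes passed (0.0699%), 8 higher in Sham_Saline (0.0509%) and 3 lower (0.0191%), with 4765 at an unadjusted p under 0.05. The count depended on single samples. Without Sham_Saline replicate 1 5009 genes passed. Without Sham_Saline replicate 2 6 passed, with 1670 at an unadjusted p under 0.05. The slope on GC share was -0.0441, 0.431 and 0.163 in Sham_Saline replicates 1 to 3, and -0.188, -0.0546 and -0.0809 in LAM. The part of GC share in these counts was not tested. Of the 381 genes higher after the peripheral cut, 226 (59.3%) were also higher in Sham_Saline than in LAM, against the same sign in 34.8% of all genes. Their median control difference was 0.063, and in 50 it was at least 0.5 times the injury difference. Atf3, Fgf3, Gpr151 and Tmem88b were among the 7 that passed in both. Of the 84 lower genes 46 (54.8%) had the same sign in the controls, with a median of -0.052. Saa3, an acute-phase protein, was the 1 that passed in both: it was at 0.396, 0.324 and 0.499 CPM in SNA_Saline, 4.18, 1.54 and 1.93 CPM in DCA, and 2.06 to 5.67 CPM in LAM, with 0, 2 and 2 counts in Sham_Saline. It was therefore high after both spinal operations and low after both nerve operations, which were the ones with saline.

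**Figure D4:**
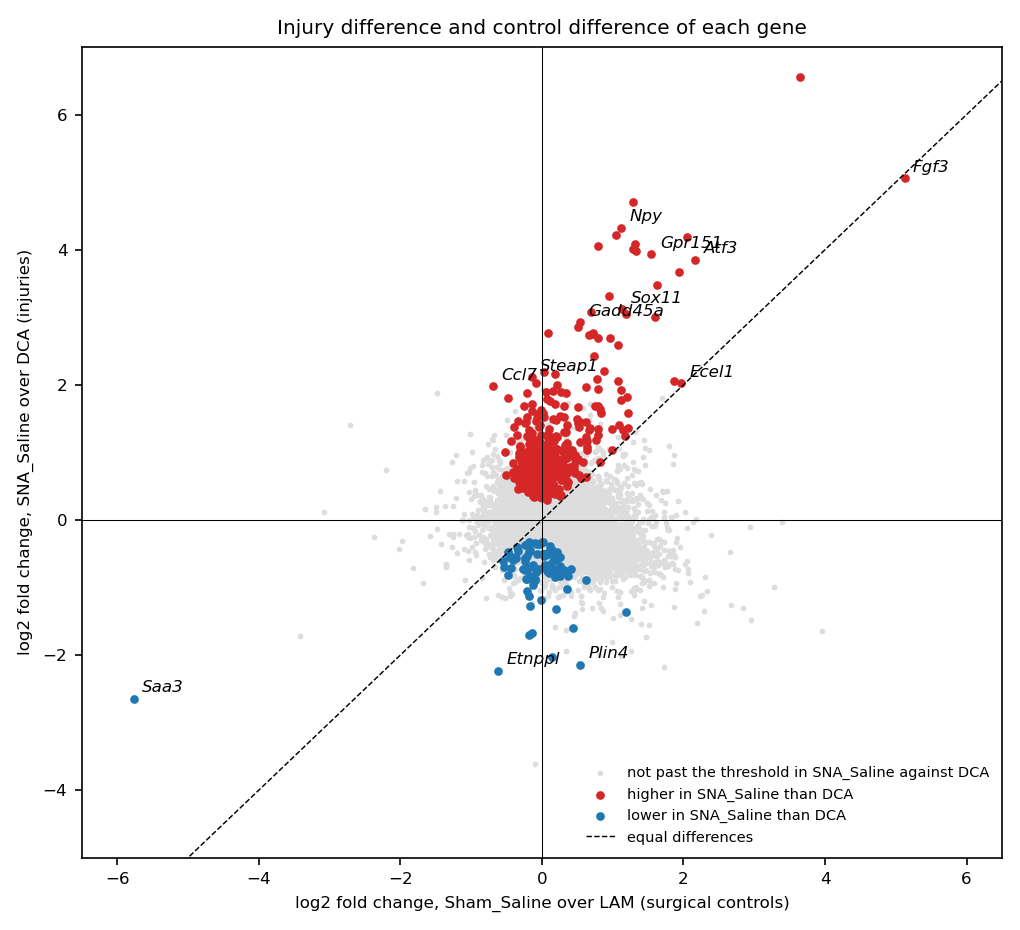
Each point is a gene, placed by its log2 fold change between the controls (Sham_Saline over LAM, horizontal) and between the injuries (SNA_Saline over DCA, vertical); coloured points pass in the injury comparison, the dashed line marks equal differences, and the control value of Fgf3 rests on 3 counts in LAM. Most called genes lie near 0 between the controls, where the median is 0.063 for the higher genes, while Atf3 and Fgf3 lie to the right.

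Distance was also taken from the midpoint of the 2 control means on the log2 scale. The mean level of SNA_Saline lay farther from it than that of DCA in 373 of the 381 higher genes. The same held in 71 of the 84 lower ones. This count does not set each injury against its own control, and its share over all genes was not computed. In 13 of the lower genes DCA lay farther, Etnppl and Plin4 among them. A test of the injury difference against the control difference called 254 genes (1.61%), 193 more positive (1.23%) and 61 more negative (0.388%) between the injuries. With the lane as a block it called 118.

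Leaving out 1 of the 6 samples, which leaves 2 in a group, ended the call of 25 of the 70 named genes that passed, and changed the sign of 0. A single sample sufficed for Oasl2 (DCA replicate 3, adjusted p = 0.0504), Atf4 (DCA replicate 2, 0.0638) and Tmem108 (SNA_Saline replicate 3, 0.0501). In Plin4 it was any of SNA_Saline replicates 1 and 2 and DCA replicate 3, with an adjusted p of at most 0.0888, and in Saa3 any of SNA_Saline replicates 1 and 2 and DCA replicate 1, at most 0.0858. The others lost the call without any 1 of 3 to 6 samples. Their highest adjusted p under any setting was 0.0780 for Ccl12, 0.0788 for Socs3, 0.210 for Fosl1, 0.158 for Rsad2, 0.238 for Mrc1 and 0.103 for Pmp2. It was 0.0706 for Col6a3, 0.0813 for Gabra5, 0.0520 for Klf10, 0.0743 for Kpna2, 0.140 for Gap43 and Htr3a and 0.176 for Idi1. For Gars, a glycine tRNA ligase of the stress response list, it was 0.208, for Sesn1 0.189, for Drp2 0.2003, for Cdc45 0.213, for Nog 0.135, for Dpep1 0.124 and for Hif3a 0.267. Atf3, Sox11, Jun, Gadd45a, Npy, Gal, Il6, Srxn1, Ifit1, Ccl2, Etnppl and Oprl1 passed without each of the 6 samples in turn.

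**Figure D5:**
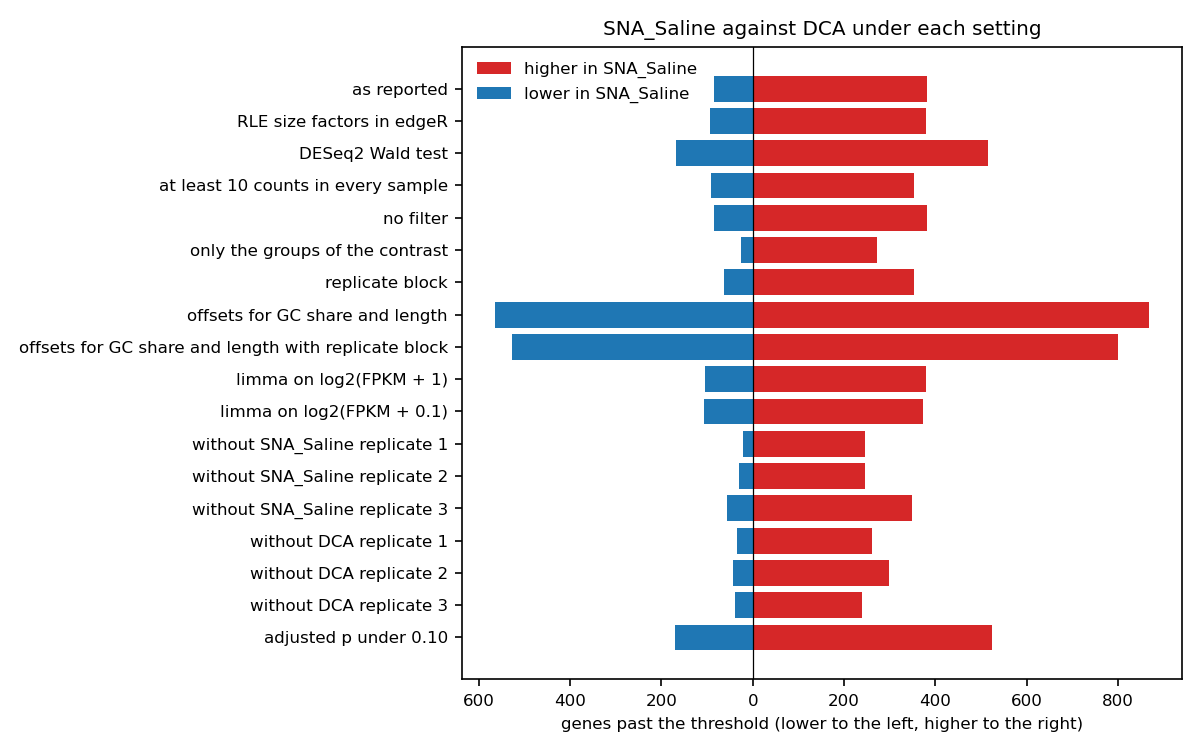
Number of genes past the threshold for SNA_Saline against DCA under each setting, higher in SNA_Saline to the right and lower to the left. The offsets for GC share and length give the most (868 and 564), and leaving out SNA_Saline replicate 1 the fewest (245 and 21).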

How the data were processed

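RNA from pooled sciatic dorsal root ganglia was sequenced single-end after a stranded mRNA kit, on 3 lanes that held 6 libraries each, per the labels' protocols. The submitters' processing notes name TopHat2 2.0.12, Bowtie2 2.2.3, SAMtools 0.1.19, HTSeq 0.6.0, edgeR 3.8.6, limma 3.22.7, FastQC 0.10.1, R 3.1.1 and mm10. The strand setting of the counting and the annotation release are not given in the sources used here, so overlapping and near-identical genes are uncertain. The authors deposited whole-number counts for 15730 genes (lowest mean 10.1 over the samples) and FPKM values for 45904 features.

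Counts were tested with edgeR 4.0.16 (R 4.3.3; TMM, filterByExpr, which kept all genes, and the quasi-likelihood test) with all 18 samples in one fit, no block, and Benjamini-Hochberg adjustment at 0.05. The common biological coefficient of variation was 17.4%. The SE is the absolute log2 fold change over the root of F. Fold changes are 2 to the fitted log2 value. With 3 samples a group an exact permutation test cannot go below 0.10. The members, gene lists, tests and alternatives were chosen with earlier results of these data known. Named were the 10 largest differences of each sign among passing genes that averaged 50 counts or more and did not overlap between groups (predicted genes left out), up to 5 passing members of each of 30 lists, the 2 highest members of a list with none, 10 set genes, and up to 5 genes of each sign between the controls. Some genes that met this rule are not reported here.

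Replicate numbers equal lanes in the labels, a shared batch. Same-numbered SNA_Saline and DCA samples deviated together (r = 0.125, 0.483 and 0.541 across genes), as did Sham_Saline and LAM (0.244, 0.423 and 0.267), so a fit with the lane as a block is given where it changes a call. Other alternatives were DESeq2 1.42.0, RLE factors, other filters, offsets for GC share and length (GENCODE M21, natural splines with 5 degrees of freedom), limma 3.58.1 on log2(FPKM + 1) and log2(FPKM + 0.1), and leaving out each sample; a group left with 2 samples shares the spread of the others. Counts for SNA_Saline against DCA were also simulated (15730 genes), with 50 genes changed at each size, all averaging 50 counts or more. Of these 98% were recovered at a log2 fold change of 2, 78% at 1, 20% at 0.58 and 70% at -1. The simulation held no lane or GC effect and changed no gene of lower count, so it does not give the recovery for those. Figures were drawn with matplotlib 3.10.9.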

Additional observations from a re-analysis of the deposited data

Results flagged for a closer look

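For 254 genes the difference between the injuries was unlike the difference between their surgical controls, by the edgeR test of the 2 contrasts. Among the genes named above, these had the more positive value between the injuries, given as the log2 difference of the contrasts: Il6 3.26, Npy 3.20, Saa1 3.20, Tmem88b 2.77, Areg 2.72, Ccl7 2.67, Gadd45a 2.39, Gpr151 2.39, Procr 2.38, Ccl12 2.28, Ccl2 1.85, Adcyap1 1.79, Ifit1 1.76, Pmaip1 1.75 and Atf3 1.68. Smaller differences of the contrasts were found for Bhlhe41 (1.28), Klf6 (1.26), Npy1r (1.23), Jun (1.18), Fosl2 (1.10), Tet3 (0.98), Oasl2 (0.95), Gfra1 (0.94), Gabra5 (0.90), Btg2 (0.86), Srxn1 (0.83), Klf10 (0.74), Kpna2 (0.72), Dusp1 (0.71) and Sqle (0.57). The value was more negative between the injuries for Kcnk12 (-4.27), Plin4 (-2.68), Cdkl4 (-1.17), Rassf6 (-1.10), Oprl1 (-0.79), Htr3b (-0.69) and Chrna6 (-0.66). The other named genes did not pass this test, among them Sox11, Sprr1a, Cckbr, Gal, Nfil3 and Fgf3.

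Saa1, an acute-phase protein, and Kcnk12, a potassium channel, entered this set through the controls. Saa1 was at 2.77, 2.27 and 4.78 CPM in SNA_Saline and 5.58, 1.62 and 1.65 CPM in DCA, which overlap, and at 0.286 to 0.590 CPM in Sham_Saline against 2.01 to 5.27 CPM in LAM. Kcnk12 was at 0.264, 0.324 and 0.784 CPM in SNA_Saline, 0.867, 0.683 and 1.17 CPM in DCA, 1.00 to 2.91 CPM in Sham_Saline and 0 to 0.235 CPM in LAM.

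Of 193 Ensembl features that the FPKM table held outside the count table at a mean of at least 1 FPKM, 4 differed between SNA_Saline and DCA in limma on log2(FPKM + 1). A feature named Flrt3, which repeats the values of the tested gene of that name, was at 203 ± 26.2 FPKM against 28.7 ± 7.73 FPKM (SD, n = 3; limma adjusted p = 2.67e-08). Gm13644 was at 5.17 ± 0.418 against 0.784 ± 0.0847 FPKM, Gm26457 at 10.4 ± 3.17 against 1.03 ± 1.07 FPKM, and Mrgprx3-ps, a pseudogene, at 28.0 ± 1.77 against 40.6 ± 2.08 FPKM. Groups of 3 samples are too small for a test of single samples that stand apart.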

How the results depend on the processing

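Of the 70 named genes that passed, 45 passed with the same sign under every alternative run, 25 failed to pass under at least 1, and 0 changed sign. Of the 21 that did not pass, only Spp1 passed under any. The count of 465 was 682 with DESeq2, 298 with only the 6 samples (273 higher, 25 lower), 415 with the replicate block, 1432 with GC and length offsets (868 higher, 564 lower) and 1326 with offsets and block (800 higher, 526 lower). Leaving out 1 sample gave 266 to 406 genes, 240 to 349 higher and 21 to 57 lower. The lower genes numbered 168 with DESeq2 and 170 at an adjusted p under 0.10. Median GC share was 48.8% for the higher, 51.2% for the lower and 49.6% for all genes.

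Sham_Saline against LAM gave 11 genes as reported, 1141 with DESeq2, 4 with at least 10 counts in every sample, 1 with only its groups, 6 with the replicate block, 26 with offsets, 23 with offsets and block and 5 with limma on log2(FPKM + 1). Leaving out 1 sample gave 4 to 5009, the highest without Sham_Saline replicate 1. The difference of the contrasts gave 254 genes as reported, 1723 with DESeq2 (701 more positive, 1022 more negative), 151 with only its groups, 118 with the replicate block, 804 with offsets, 641 with offsets and block, 2398 at an adjusted p under 0.10, and 55 to 4600 with 1 sample left out (55 without SNA_Saline replicate 1, 4600 without Sham_Saline replicate 1). The replicate block ended the call of Fosl1, Rsad2, Mrc1, Idi1, Drp2, Cdc45 and Hif3a among the named genes, and of no other. For none of these shifts was the cause tested.

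Changes of sign occurred in 7 genes that did not pass. On the log2 scale, Tnnt3 (0.17 as reported) was -0.25 and -0.29 with limma at pseudocounts 1 and 0.1, and -0.676 to 0.629 with 1 sample left out. In such fits Saa1 (0.12) ran from -0.26 to 1.0, Hbb-bt (0.07) from -0.366 to 0.411, Kcna1 (-0.02) from -0.147 to 0.107 and Pvalb (-0.09) from -0.305 to 0.05. Hbb-bs (0.02) was -0.024 with the replicate block, -0.035 and -0.036 with limma and -0.409 to 0.394 with 1 sample left out. Atp5a1 (-0.08) was 0.001 with offsets and 0.003 with offsets and block. At this depth and n, differences under 1.5-fold were mostly not detectable.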

Other observations

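Further members of the 2 lists with the most passing genes, chosen for mention after their values were seen, were higher after the peripheral cut than after the central one. Secreted and surface proteins of axon growth led them: Flrt3, a cell adhesion protein, by a log2 fold change of 2.85 (SE 0.21, edgeR adjusted p = 3.00e-07), Fst, the activin antagonist follistatin, by 2.74 (adjusted p = 4.66e-08), Csf1, a cytokine that acts on microglia and macrophages, by 1.97 (adjusted p = 8.38e-08) and Bdnf, a neurotrophin, by 1.54 (adjusted p = 4.57e-06). For Flrt3, Fst, Csf1 and Bdnf the injury difference exceeded the control difference (by 2.34, 2.08, 1.36 and 1.27; adjusted p = 0.000498, 0.000283, 0.00101 and 0.00300). Ecel1, an endopeptidase of injured neurons, and Itga7, an integrin chain that binds laminin, were higher by 2.03 and 1.33 (adjusted p = 0.0130 and 0.00856). Their control differences were nearly as large, 1.97 and 1.15 (adjusted p = 0.104 for each). The cytoskeletal genes Tubb6 and Stmn4 were higher by 1.45 and 1.44 (adjusted p = 0.000226 and 2.43e-05). Among the transcription factors, Smad1, which carries BMP signals, was higher by 0.79 and Crem, which binds CREB sites, by 1.01 (adjusted p = 9.81e-05 and 0.00285). Stat3, the factor downstream of IL-6, had a log2 fold change of 0.25 that did not pass (SE 0.15, adjusted p = 0.518).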
